A study of Mus musculus with 9 samples.

Results

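The 35 genes described here encode the tumour suppressor p53, its inhibitors, its best known target genes and the kinases and repair factors that act around it in the DNA damage response. They were taken by gene symbol from the count tables of 41388 genes. Each of the 35 matched 1 Ensembl identifier, and 34 passed the filter on low counts. Pmaip1, a p53 target that promotes cell death, did not pass and is given by its counts alone.

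The libraries were made from whole liver of male C57BL/6J congenic mice of 3 genotypes. DKO mice (Fabp1 Mttp DKO) lacked Mttp in the liver and carried a germline deletion of Fabp1, MttpLKO mice lacked Mttp in the liver, and control mice were Mttp fl/fl. Mttp loads triglyceride onto the lipoproteins that the liver secretes, and Fabp1 is the main fatty acid binding protein of hepatocytes. All mice, controls included, received diethylnitrosamine (DEN), a carcinogen that the liver activates into a DNA-alkylating agent, as an intraperitoneal injection of 25 mg per kg at 14 days of age. They ate chow, and livers were collected at 6 months. Each library pooled RNA of 3 mice, with 3 pools per genotype, so 9 libraries stand for 27 mice. No liver without DEN, no liver taken soon after the injection and no liver with the Fabp1 deletion alone was analysed here, so the response to DEN itself was not measured. The labels do not name the Cre driver behind the liver deletion, nor do they say whether a liver piece held tumour. Pooling hides the spread between single mice, and the p-values below measure the spread between pools.

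As background, p53 is a transcription factor that is held low in unstressed cells by Mdm2, a ubiquitin ligase, and is restrained by the related protein Mdm4. DNA damage activates the kinases Atm, Chek1 and Chek2, which modify p53 and its inhibitors, so that p53 is controlled mainly through its protein and only weakly through its mRNA. Active p53 raises the mRNA of targets that stop the cell cycle (Cdkn1a, the inhibitor of cyclin-dependent kinases called p21), repair DNA (Xpc, Ddb2), cause cell death (Bax, Bbc3, Fas) and lower p53 again (Mdm2). Several of these genes, among them Gdf15, the Gadd45 genes and Cdkn1a, also answer to signals other than p53 in liver, such as feeding state, protein folding stress and inflammation.

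The DKO libraries held 23268389 to 23429588 counts each, the MttpLKO libraries 26362408 to 27918197 and the control libraries 24995426 to 27080442. Levels below are CPM, counts relative to library sizes that were scaled by TMM, a normalization for RNA composition. The labels held for the targeted genes. Mttp stood at 3.24 to 5.79 CPM in DKO, at 6.14 to 9.78 CPM in MttpLKO and at 69.4 to 180.8 CPM in control libraries. Fabp1 stood at 50.3 to 78 CPM in DKO, against 3379 to 4984 CPM in MttpLKO and 6060 to 6845 CPM in control libraries. All 7 hepatocyte markers were detected in every library. MttpLKO replicate 3 stood apart from the other 8 libraries: its score on the first principal component was 43, against -16 to 4.76 in the others. Its 6 B and plasma cell markers summed to 57.1 CPM, against 4.79 to 8.28 CPM elsewhere, and its 6 T and NK cell markers to 9.56 CPM, against 1.57 to 3.23 CPM. In bulk liver, a change in the number of cells of a type and a change in RNA per cell cannot be told apart.

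The promoter sequences show which members carry the letters that p53 is known to bind. p53 binds a pair of copies of a 10-base consensus, known as the p53 decamer, which runs from purines through a C and a G around A or T letters to pyrimidines. The decamer consensus is palindromic, so both strands give the same matches. A window of 250 bases before and 50 after the transcription start was present in the RefSeq table (GRCm38.p6) for 27 of the 35 members. It held an exact decamer in 10 of these 27 genes (37%), against 2582 of all 27025 genes with a window (9.55%). The list was made up largely of known p53 targets, so these 2 shares are a description and not a test. A gene was counted if any of its windows held a decamer, so a gene with more starts had more windows to match. The windows of Perp, Ddb2, Trp53inp1, Tnfrsf10b, Pmaip1, Zmat3, Rrm2b and Xpc were not in the table. The matches are printed 5′ to 3′ with the decamer in capitals and 10 bases on each side, and the coordinates are those of the decamer.
Trp53, chr11:69580284-69580293, plus strand: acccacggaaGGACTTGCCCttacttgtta
Mdm2, chr10:117710935-117710944, minus strand: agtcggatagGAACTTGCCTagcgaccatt
Polk, chr13:96519409-96519418, minus strand: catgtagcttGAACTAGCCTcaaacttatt
Cdkn1a, chr17:29090906-29090915, plus strand: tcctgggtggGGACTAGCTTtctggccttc
Cdkn1a, chr17:29090928-29090937, plus strand: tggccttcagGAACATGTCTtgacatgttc
Ccng1, chr11:40755462-40755471, minus strand: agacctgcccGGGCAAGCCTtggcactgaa
Gtse1, chr15:85859955-85859964, plus strand: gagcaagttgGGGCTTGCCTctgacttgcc
Gadd45a, chr6:67037438-67037447, minus strand: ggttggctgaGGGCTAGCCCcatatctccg
Sesn1, chr10:41887266-41887275, plus strand: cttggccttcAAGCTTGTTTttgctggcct
Bax, chr7:45467090-45467099, minus strand: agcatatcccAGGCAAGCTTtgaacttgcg
Aen, chr7:78895937-78895946, plus strand: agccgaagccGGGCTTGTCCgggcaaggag
Cdkn1a was the only one of the 27 with a pair of decamers no more than 13 bases apart, an arrangement found in 20 of 27025 genes (0.074%). The 250 bases before its upstream start are shown because Cdkn1a was also among the members that varied most between pools, as described further on, with both decamers in capitals.
Cdkn1a, chr17:29090729-29090978, plus strand: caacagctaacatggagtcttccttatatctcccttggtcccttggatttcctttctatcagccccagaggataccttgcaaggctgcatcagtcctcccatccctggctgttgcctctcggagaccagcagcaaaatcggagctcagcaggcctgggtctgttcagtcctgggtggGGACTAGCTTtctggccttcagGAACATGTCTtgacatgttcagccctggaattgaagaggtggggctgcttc
The first decamer began 73 bases and the second 51 bases before that start. Only exact decamers were counted and marked, and the 10 bases directly after the second decamer depart from the consensus at their first letter alone. In Gtse1 the match lay inside the transcript, at position 10 from its start. In Aen it lay at position 11 of the transcript from 1 start and before the other start in the table. The matches of Sesn1 and Polk belonged to a start inside the gene. The window at their other start, chr10:41810324-41810623 and chr13:96542530-96542829, held none. The other windows of Cdkn1a (chr17:29093519-29093818) and Gtse1 (chr15:85859457-85859756) also held none. A match says only that these letters are present, and many p53 sites, such as those in introns, lie outside such windows. Among the tested members with a window, the median log2 fold change was 0.00 for the 10 with a decamer and -0.15 for the 17 without in DKO against MttpLKO. In DKO against control it was 0.08 with and 0.17 without, and in MttpLKO against control it was 0.04 with and 0.33 without. These medians carry no test.

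Levels of different genes were compared per length, as RPKM, averaged over the 9 libraries. The most abundant members were Plk3, a stress-responsive polo-like kinase, at 136.6 RPKM and Gadd45g, a growth arrest gene, at 124.1 RPKM. Their SD over the libraries was 58.9 and 83.6 RPKM, so the order of these neighbours was not fixed. Next came Perp, a membrane protein of cell junctions and a p53 target, at 47.7 ± 3.83 RPKM, then Gdf15, a secreted stress hormone, at 43.6 ± 24.1 and Bax, which opens the mitochondrial membrane in cell death, at 39.3 ± 5.33 RPKM (SD, n = 9). Mdm2 at 8.65 ± 0.632, Trp53 at 7.23 ± 0.761, Cdkn1a at 4.89 ± 2.83 and Mdm4 at 4.48 ± 0.711 RPKM lay in the middle of the list. At the low end stood Brca1, Chek1, Tnfrsf10b, Eda2r and Pmaip1, at 0.179, 0.158, 0.135, 0.135 and 0.0965 RPKM. The chromosomal positions of the main genes, as deposited, were chr11:69580359-69591873 for Trp53, chr10:117688888-117710758 for Mdm2, chr1:132959484-133030561 for Mdm4 and chr17:29090979-29100722 for Cdkn1a. The build behind these is not given in the sources used here, and the starts of all 35 members lay within 100 kb of GENCODE M21 (GRCm38).

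**Figure D1:**
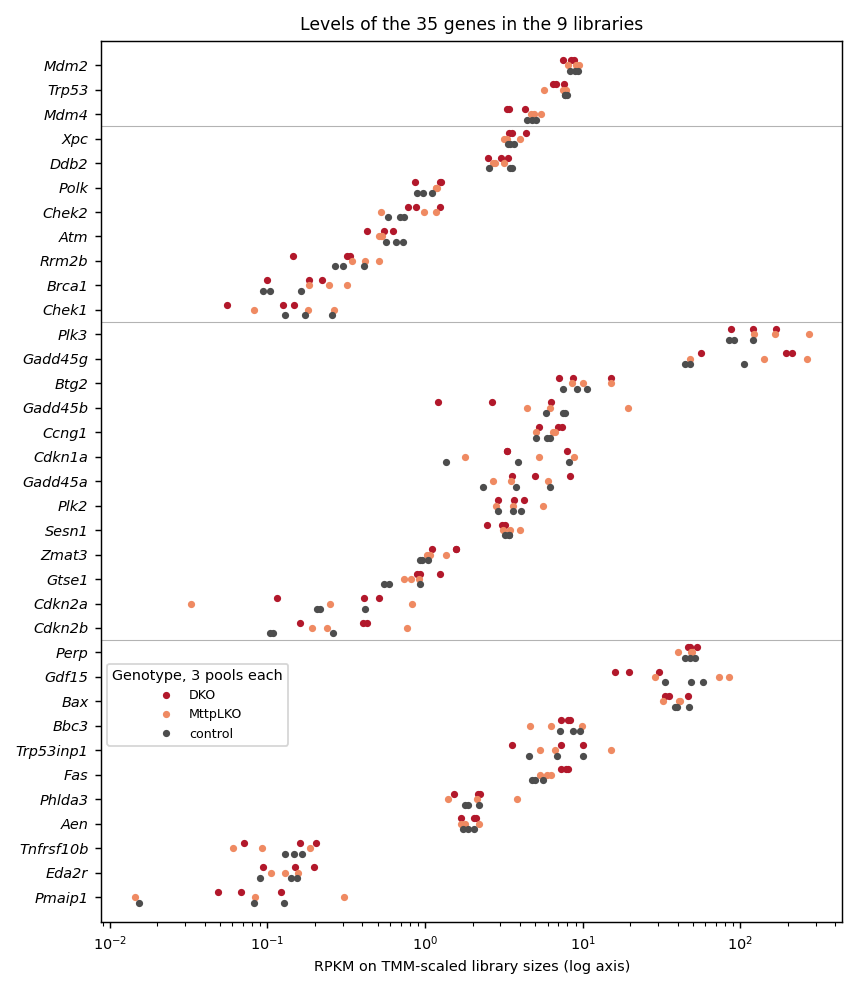
RPKM on a log axis for the 35 genes, grouped by role, with 1 point per library coloured by genotype. Plk3 and Gadd45g averaged over 100 RPKM, Pmaip1 averaged 0.0965 RPKM, and the points of the 3 genotypes lie among each other for most genes.

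The abundance of p53 itself and of its 2 inhibitors was the first measurement of interest. Trp53 had 26.2, 30.7 and 27.2 CPM in DKO, 30.4, 23 and 31.5 CPM in MttpLKO and 32, 31.1 and 31.1 CPM in control libraries. All 3 DKO values were below all 3 control values, by little. The log2 fold change was -0.16 for DKO against control (95% interval -0.45 to 0.12, adjusted p = 0.691), -0.01 for DKO against MttpLKO (-0.30 to 0.27, adjusted p = 0.988) and -0.15 for MttpLKO against control (-0.43 to 0.13, adjusted p = 0.929). The value for DKO against MttpLKO turned to between 0.02 and 0.07 without MttpLKO replicate 1 or 3 or DKO replicate 1 or 3. All adjusted p-values in this text are from edgeR's quasi-likelihood test with Benjamini-Hochberg adjustment over all 14741 genes tested, unless another tool is named.

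Mdm2, both an inhibitor of p53 and one of its direct targets, was as steady. It had 44.8, 37.9 and 42.5 CPM in DKO, 41, 45.9 and 47.7 CPM in MttpLKO and 42.1, 45.2 and 47.3 CPM in control libraries. The groups overlapped throughout. Its log2 fold change was -0.11 for DKO against control, -0.10 for DKO against MttpLKO and 0.00 for MttpLKO against control, with 95% intervals of -0.33 to 0.12, -0.33 to 0.12 and -0.23 to 0.23. These intervals leave room for small changes and not for a doubling.

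Mdm4, which binds p53 and blocks its transcriptional activity, was lower in DKO than in both other genotypes. It had 63.9, 49.2 and 50.1 CPM in DKO, against 70, 72.3 and 80.2 CPM in MttpLKO and 66, 74.3 and 70.7 CPM in control libraries. All 3 DKO pools lay below all 6 others. The log2 fold change was -0.45 ± 0.12 for DKO against MttpLKO (SE, unadjusted p = 0.00337, adjusted p = 0.226) and -0.37 ± 0.12 for DKO against control (adjusted p = 0.282), so it did not pass the threshold of 0.05 in either. It was 0.08 for MttpLKO against control.

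Over the whole set, none of the 34 tested members passed in any of the 3 comparisons, which share libraries: each genotype enters 2 of them. For DKO against MttpLKO, 59 of 14741 genes passed (0.4%), for DKO against control 49 (0.332%) and for MttpLKO against control 51 (0.346%), and a count of 0 among 34 members is near these shares. At an unadjusted p under 0.05, 4 members stood out in DKO against MttpLKO, where 9.1% of all genes did, 4 in DKO against control, where 11.2% did, and 2 in MttpLKO against control, where 6.97% did. DESeq2 called 1 member, Fas, in DKO against control, where it called 1.73% of all genes. It called no member in DKO against MttpLKO (1.45% of all genes) or in MttpLKO against control (1.12%). The median log2 fold change of the members was -0.04, 0.04 and 0.19 in DKO against MttpLKO, DKO against control and MttpLKO against control, beside -0.02, 0.00 and 0.01 over all tested genes. In MttpLKO against control 24 members were higher and 10 lower (70.6% higher, against 52.3% of all genes). That median was 0.09 without MttpLKO replicate 2 or replicate 3 and 0.11 without control replicate 1. The median standard error of a member's log2 fold change in that comparison was 0.27, against 0.18 over all genes.

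**Figure D2:**
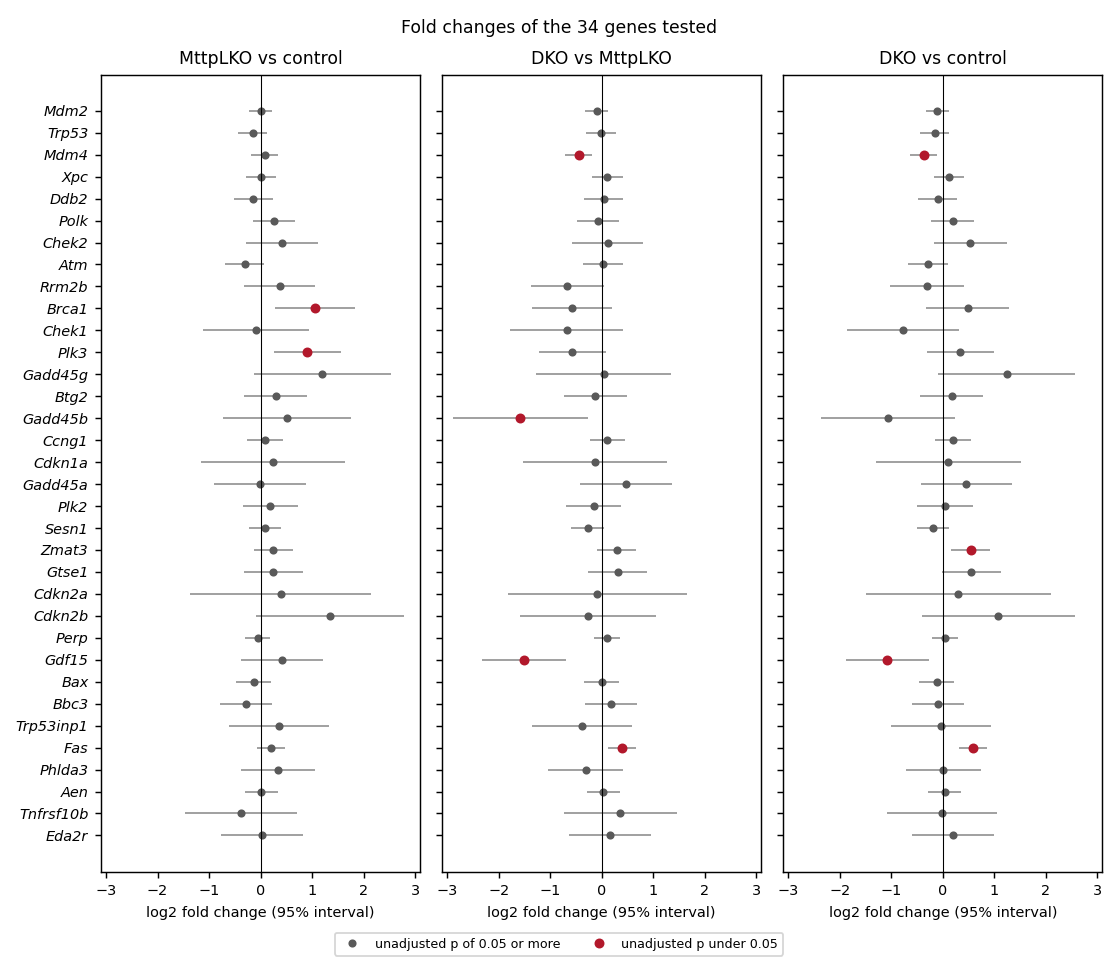
Log2 fold change with its 95% interval for the 34 tested genes in the 3 comparisons; points in red had an unadjusted p under 0.05, and none had an adjusted p under 0.05. The intervals of Trp53 and Mdm2 are narrow and cross 0, and those of Cdkn1a are among the widest.

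In DKO against MttpLKO, the comparison for an added germline Fabp1 deletion where the liver already lacked Mttp, the smallest p-values belonged to Gdf15, Mdm4, Fas and Gadd45b. Gdf15, a circulating cytokine that limits food intake and a target of both p53 and the ATF4 and CHOP stress factors, had 36.5, 29.6 and 56.1 CPM in DKO, against 134.9, 157.5 and 53.5 CPM in MttpLKO libraries. The DKO pools were low, 2 of the MttpLKO pools were high and MttpLKO replicate 3 lay inside the DKO range. The log2 fold change was -1.5 ± 0.37 (SE), 2.83-fold lower in DKO, with an unadjusted p of 0.00193 and an adjusted p of 0.183. Without MttpLKO replicate 3 it was -1.84 with an adjusted p of 0.0167, which passes the threshold. With no filter on low counts it was -1.5 with an adjusted p of 0.00373, and with DESeq2 the adjusted p was 0.0723. The 6 Kupffer cell markers, none of them at 0 in any library, were all higher in DKO than in MttpLKO, and 0 passed in edgeR. Of these markers 4 had an unadjusted edgeR p under 0.05, where 9.1% of all tested genes did. DESeq2 called 1, Marco, where it called 1.45% of all genes. The 6 markers summed to 90.6, 106.8 and 45.7 CPM in DKO, to 23.3, 27.3 and 70.2 CPM in MttpLKO and to 93.6, 74.9 and 67.5 CPM in control libraries. MttpLKO replicate 3 lay within the control range here, and MttpLKO replicates 1 and 2 lay below it. DKO replicate 3 lay below the control range as well. The part of Kupffer cells in the Gdf15 values was not tested.

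Fas, the death receptor, had 14, 13.1 and 14.5 CPM in DKO, against 10.7, 9.63 and 11.3 CPM in MttpLKO libraries. Every DKO pool was above every MttpLKO pool (log2 fold change 0.40 ± 0.12, adjusted p = 0.327). Gadd45b, which responds to stress and inflammatory signals, had 1.53, 3.36 and 7.93 CPM in DKO, against 7.83, 24.5 and 5.63 CPM in MttpLKO libraries. Its groups overlapped, and the log2 fold change of -1.58 ± 0.59 (adjusted p = 0.445) was -0.65 without MttpLKO replicate 2 and -2.37 without DKO replicate 3. Rrm2b, the p53-inducible subunit of ribonucleotide reductase, had 2.05, 0.937 and 2.15 CPM in DKO, against 2.22, 2.68 and 3.26 CPM in MttpLKO libraries, with no overlap (log2 fold change -0.67 ± 0.32, adjusted p = 0.571). With Mdm4, Rrm2b and Fas, 3 of the 34 members had no overlap, where 11.5% of all tested genes did.

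By role, all 3 genes of the group of p53 and its inhibitors were lower in DKO than in MttpLKO (median log2 fold change -0.10). Among 8 damage signalling and repair genes 4 were higher and 4 lower (median -0.02). Among 13 genes of cell cycle arrest and growth control 5 were higher and 8 lower (median -0.13), and among 10 tested genes of cell death and secreted targets 7 were higher and 3 lower (median 0.06). These counts are of direction alone.

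**Figure D3:**
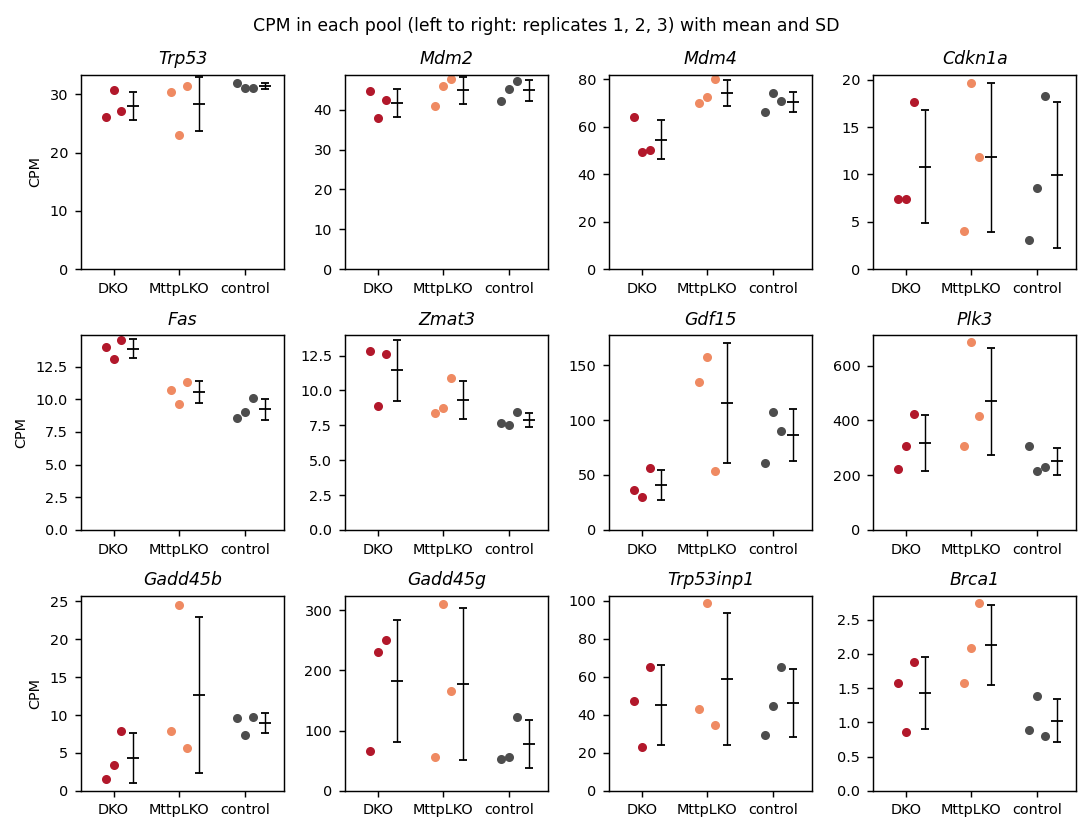
CPM of 12 members in each pool, with the mean and SD of 3 pools per genotype (DKO, MttpLKO, control). Fas shows tight groups with the DKO pools above the others, and the DKO pools of Mdm4 lie below the others, the highest of them (63.9 CPM) close to the lowest control pool (66 CPM); Cdkn1a, Gadd45g and Trp53inp1 show pools of 1 genotype that lie several-fold apart.

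DKO against control, which combines both deletions, set Fas at the top of the list. With 14, 13.1 and 14.5 CPM in DKO, against 8.53, 9.03 and 10.1 CPM in control libraries, its groups were well separated. Fas averaged 13.9 ± 0.692 CPM in DKO and 9.2 ± 0.778 CPM in control libraries (SD, n = 3 each). The log2 fold change was 0.59 ± 0.12 (95% interval 0.32 to 0.86), 1.51-fold, with an unadjusted p of 0.000607 and an adjusted p of 0.0952 in edgeR, and an adjusted p of 0.00567 in DESeq2. MttpLKO pools, at 10.7, 9.63 and 11.3 CPM, overlapped the control range (log2 fold change 0.20 ± 0.12, adjusted p = 0.876). Lymphocytes also express Fas, and the T and NK cell markers summed to 2.17, 2.9 and 1.57 CPM in DKO, against 3.23, 2.82 and 1.7 CPM in control libraries. The B and plasma cell markers summed to 8.28, 5.41 and 4.79 CPM in DKO and to 5.66, 7.79 and 5.32 CPM in control libraries. The part of lymphocytes in the Fas values was not tested.

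Zmat3, an RNA-binding p53 target with growth-suppressing activity, had 12.8, 8.9 and 12.6 CPM in DKO, against 7.68, 7.49 and 8.43 CPM in control libraries. All DKO pools were higher (log2 fold change 0.54 ± 0.17, adjusted p = 0.275). Gdf15, at 36.5, 29.6 and 56.1 CPM in DKO, was below all control pools, at 61.1, 107.5 and 90.1 CPM (log2 fold change -1.08 ± 0.37, adjusted p = 0.309). Chek2, a checkpoint kinase upstream of p53, ran from 1.75 to 2.81 CPM in DKO and from 1.32 to 1.66 CPM in control libraries (log2 fold change 0.53 ± 0.32, adjusted p = 0.589). Together with Trp53 and Mdm4, 6 of the 34 members did not overlap, where 18.1% of all tested genes did not overlap. Among the 13 genes of cell cycle arrest and growth control 11 were higher and 2 lower in DKO than in control (median 0.30), and among 10 genes of cell death and secreted targets 5 were higher and 5 lower (median 0.00).

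In MttpLKO against control, the comparison for hepatic loss of Mttp alone, Plk3 and Brca1 were the 2 members with an unadjusted p under 0.05. Plk3 had 306.7, 686.2 and 417.5 CPM in MttpLKO, against 305.1, 214 and 231.2 CPM in control libraries. The groups did not overlap, although MttpLKO replicate 1 and control replicate 1 nearly touched. The log2 fold change was 0.91 ± 0.30, 1.88-fold (unadjusted p = 0.0108, adjusted p = 0.448), and it was 0.53 without MttpLKO replicate 2. DKO pools, at 221.9, 306 and 424.2 CPM, overlapped both ranges (log2 fold change -0.57 ± 0.30 against MttpLKO, adjusted p = 0.605, and 0.34 against control, adjusted p = 0.723).

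Brca1, a repair factor of homologous recombination that is made mostly in dividing cells, had 41, 57 and 74 counts in MttpLKO, against 22, 37 and 22 in control libraries. That is 2.13 ± 0.589 CPM in MttpLKO and 1.03 ± 0.321 CPM in control libraries (SD, n = 3 each), with no overlap (log2 fold change 1.05 ± 0.36, unadjusted p = 0.0134, adjusted p = 0.495). Of 22 tested markers of proliferating cells, 21 were higher in MttpLKO than in control (median log2 fold change 0.51) and 0 passed the test in edgeR or DESeq2. Of these markers 1 had an unadjusted edgeR p under 0.05, where 6.97% of all tested genes did. The 1 was Tk1, at 63.8, 50 and 42.9 CPM in MttpLKO, against 35.4, 41 and 33.5 CPM in control libraries. Tk1 was among 2 of the 22 that were higher in every MttpLKO pool, where 14.3% of all tested genes did not overlap. Per gene, the mean log2 difference of the 22 markers from the control mean was 0.01, 0.01 and 0.88 in MttpLKO replicates 1, 2 and 3. On this mean replicate 3 alone stood above the control level, while Tk1 had its lowest MttpLKO value in replicate 3. Mki67, a marker of cycling cells named after its values were seen, had 0.726, 1.03 and 9.34 CPM in MttpLKO, against 1.33, 1.5 and 1.41 CPM in control libraries. The part of dividing cells in the Brca1 values was not tested.

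Gadd45g had 56.5, 309.4 and 166.3 CPM in MttpLKO, against 52.1, 55.9 and 123.3 CPM in control libraries, and 66.1, 229.9 and 250.5 CPM in DKO. In each genotype 1 pool or more stood well above another, and the log2 fold change of 1.20 ± 0.60 (adjusted p = 0.777) in MttpLKO against control was 0.53 without MttpLKO replicate 2. Cdkn2b, the cell cycle inhibitor p15, had 7, 9 and 29 counts in MttpLKO, against 9, 4 and 4 in control libraries (log2 fold change 1.35 ± 0.65, adjusted p = 0.747, and 0.45 without MttpLKO replicate 3). Polk, a DNA polymerase that copies past lesions, was higher in every MttpLKO pool than in every control pool (log2 fold change 0.26), and Atm, the kinase activated by double-strand breaks, was lower in every one (-0.31), with adjusted p-values of 0.892 and 0.827. So 4 of the 34 members did not overlap, where 14.3% of all tested genes did not. Of the 13 genes of cell cycle arrest and growth control 12 were higher in MttpLKO and 1 lower (median 0.25), and of 10 genes of cell death and secreted targets 6 were higher and 4 lower (median 0.02).

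Several members of low abundance were highest in MttpLKO replicate 3, the library with the high lymphocyte markers. Pmaip1 had 22 counts there, against 1 to 9 counts in the other 8 libraries. Cdkn2a, the locus of the inhibitor p16 and of Arf, a protein that stabilises p53, had 26 counts there, against 1 to 14 elsewhere. Phlda3, a p53 target that restrains Akt signalling, had 6 CPM there, against 2.18 to 3.49 CPM elsewhere. In the same library the stellate cell markers summed to 387.4 CPM, against 184.8 to 259.7 CPM elsewhere, and the recruited macrophage markers to 68.3 CPM, against 30.4 to 49 CPM. The part of these cells in the 3 values was not tested. Not every rare member was highest in that library. Tnfrsf10b had 0.593 CPM there and 0.643 CPM in DKO replicate 1, and Eda2r had 0.927 CPM there and 1.16 CPM in DKO replicate 3. The share of all genes that were highest in MttpLKO replicate 3 was not counted, so this is not shown to be particular to the members.

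Further targets of the classical p53 response, Bax, Bbc3, Ccng1, Perp, Xpc and Ddb2, passed in no comparison. Bax had 28.7 to 40.5 CPM in DKO, 28.1 to 35.8 CPM in MttpLKO and 33.4 to 41 CPM in control libraries. Bbc3, the cell death gene also called Puma, averaged 15.8 ± 1.05 CPM in DKO, 13.9 ± 5.41 CPM in MttpLKO and 17 ± 2.38 CPM in control libraries (SD, n = 3 each). Ccng1, cyclin G1, averaged 23 ± 3.94, 21.3 ± 3.09 and 20.1 ± 2.03 CPM in the same order of genotypes, and Perp 93.6 ± 7, 87.4 ± 9.76 and 91.1 ± 6.29 CPM. The repair genes Xpc, which senses distorted DNA, and Ddb2, its partner in nucleotide excision repair, averaged 20.8 ± 2.86 and 8.13 ± 1.23 CPM in DKO, 19.2 ± 2.42 and 7.92 ± 0.693 CPM in MttpLKO and 19.1 ± 0.8 and 8.72 ± 1.5 CPM in control libraries. For each of these genes the ranges of the 3 genotypes overlapped. Bbc3 ran from 9.34 to 19.9 CPM within MttpLKO, so its overlap does not by itself show a small difference.

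Cdkn1a, the most used readout of p53 activity, separated pools and not genotypes. It had 7.4, 7.41 and 17.7 CPM in DKO, 3.97, 19.7 and 11.8 CPM in MttpLKO and 3.03, 8.61 and 18.3 CPM in control libraries. The highest library exceeded the lowest 6.49-fold, and the ranges of the 3 genotypes overlapped almost throughout. Its log2 fold change was 0.11 for DKO against control (95% interval -1.29 to 1.51, adjusted p = 0.97), -0.13 for DKO against MttpLKO (-1.52 to 1.27, adjusted p = 0.976) and 0.24 for MttpLKO against control (-1.15 to 1.63, adjusted p = 0.988). Intervals this wide leave room for a change in either direction, and leaving out 1 library turned the sign in each comparison. DKO against control was -0.30 without control replicate 1 and -0.44 without DKO replicate 3. DKO against MttpLKO was 0.47 without MttpLKO replicate 2 and 0.09 without DKO replicate 1 or 2, and MttpLKO against control was -0.19 without control replicate 1 and -0.34 without MttpLKO replicate 2.

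The spread between pools of 1 genotype divided the members. The pooled within-genotype SD of log2(CPM + 0.5) was 0.101 for Fas, 0.107 for Mdm2, 0.127 for Perp, 0.143 for Mdm4 and 0.157 for Trp53. It was 1.03 for Cdkn1a, 1.02 for Gadd45g, 0.865 for Gadd45b, 0.712 for Trp53inp1, a p53 target with roles in autophagy and cell death, and 0.602 for Gdf15. Among the 500 genes nearest in abundance, 99.6% had a smaller SD than Cdkn1a, 99.8% than Trp53inp1 and 9% than Fas. On this scale, which dampens the spread of rare genes, Mdm2, a direct p53 target like Cdkn1a, was at the low end and Cdkn1a at the high end. As a ratio of the highest to the lowest library, Cdkn2a (25.2-fold), Pmaip1 (21.3-fold), Gadd45b (16.1-fold) and Cdkn2b (7.43-fold) exceeded Cdkn1a (6.49-fold). Cdkn2a, Pmaip1 and Cdkn2b had between 1 and 29 counts per library, so their ratios rest on few reads.

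Some members were highest in the same pools. Cdkn1a, Trp53inp1, Gtse1, Gadd45b and Gadd45g were each highest in the same pools, DKO replicate 3, MttpLKO replicate 2 and control replicate 3, within their genotypes. That is 5 of 34 members (14.7%), against 702 of 14741 genes (4.76%), a description made after the values were seen. The 3 pools are those of counted members such as Cdkn1a, which match by the choice of pools. The 2 shares therefore do not show an excess among the members. No member was lowest in all 3 of these pools, as 3.81% of all genes were. Trp53inp1 had 47.4, 23 and 65.1 CPM in DKO, 43.2, 98.6 and 34.5 CPM in MttpLKO and 29.3, 44.5 and 64.9 CPM in control libraries. Gadd45a, which binds p21 and slows entry into mitosis, did otherwise: it was highest in DKO replicate 2, MttpLKO replicate 1 and control replicate 1, at 14.6, 10.5 and 10.9 CPM. Mdm2 was highest in DKO replicate 1, MttpLKO replicate 3 and control replicate 3.

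Genes of feeding state and of the daily clock, lists chosen after the values were seen, moved with those pools to different degrees. Of 8 liver genes known to rise in fasting, 4 (Pck1, Igfbp1, Pdk4 and Angptl4) were highest in the same pools, where 4.76% of all tested genes were. Both the pools and these genes were picked with the values known, so this count carries no test. G6pc, Ppargc1a, Irs2 and Fgf21 were not highest in all 3. The summed level of all 8 was 4014, 4021 and 6065 CPM in DKO, 5244, 7195 and 4645 CPM in MttpLKO and 3945, 3865 and 5484 CPM in control libraries. Most of that sum was Pck1, at 3345, 3403 and 4902 CPM in DKO, 4309, 5769.5 and 3921 CPM in MttpLKO and 3369, 3228 and 4464 CPM in control libraries. Igfbp1, a secreted binding protein induced when insulin is low, had 94.5, 129.1 and 395.4 CPM in DKO, 235, 465 and 130.5 CPM in MttpLKO and 137.2, 86.5 and 144.1 CPM in control libraries. Of 10 clock output genes none was highest in all 3 pools and 2, Dbp and Per3, were lowest in all 3. Over all tested genes 4.76% were highest and 3.81% lowest in all 3. Dbp had 145.8, 188 and 98.3 CPM in DKO, 182, 96.4 and 137.6 CPM in MttpLKO and 173.8, 158.3 and 137.9 CPM in control libraries. Time of day and feeding at collection are not in the labels, and their part in the Cdkn1a values was not tested.

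**Figure D4:**
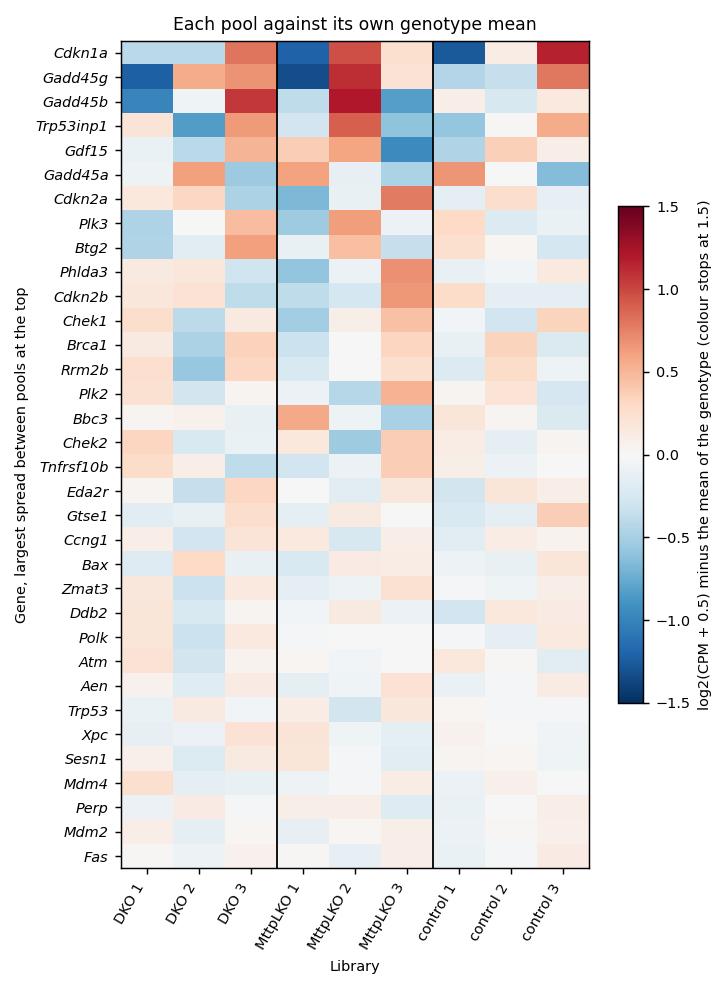
Deviation of log2(CPM + 0.5) of each gene in each pool from the mean of its own genotype, with genes ordered by spread and pools grouped as DKO, MttpLKO and control. Cdkn1a, at the top, is high in DKO replicate 3, MttpLKO replicate 2 and control replicate 3, and Fas, at the bottom, is nearly flat.

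Wider lists around the pathway also held few calls. Over all tested genes, 9.1% had an unadjusted edgeR p under 0.05 in DKO against MttpLKO, 11.2% in DKO against control and 6.97% in MttpLKO against control. DESeq2 called 1.45%, 1.73% and 1.12% of all genes in the same order. Of 28 tested further p53 target genes, 0 passed in any comparison in edgeR or DESeq2, with 0, 1 and 2 at an unadjusted edgeR p under 0.05 in DKO against MttpLKO, DKO against control and MttpLKO against control. Their median log2 fold change was 0.01 in DKO against MttpLKO, 0.17 in DKO against control and 0.02 in MttpLKO against control. Among them Ephx1, an epoxide hydrolase, had a log2 fold change of 0.36 ± 0.15 in MttpLKO against control (adjusted p = 0.674). Psrc1, which acts on the mitotic spindle, had 43, 31 and 15 counts in DKO, 5, 6 and 117 in MttpLKO and 5, 4 and 13 in control libraries. Every DKO pool was above every control pool (log2 fold change 2.15 ± 1.09, adjusted p = 0.501), and among MttpLKO pools replicate 3 alone was high (2.5 ± 1.07 against control, adjusted p = 0.674). Of 18 tested regulators and cofactors of p53, 0 passed with either tool, and 2, 2 and 0 had an unadjusted edgeR p under 0.05 in the same order of comparisons. Hipk2, a kinase that phosphorylates p53, was higher in every DKO pool than in every MttpLKO pool (log2 fold change 0.57 ± 0.15, adjusted p = 0.222), and Rpl5, a ribosomal protein that binds Mdm2, was lower in every DKO pool than in every control pool (-0.57 ± 0.18, adjusted p = 0.262). Rpl5 has near-identical pseudogene copies that could share its reads.

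Of 57 tested genes of damage sensing and repair, 0 passed in any comparison with either tool. An unadjusted edgeR p under 0.05 was found for 4, 7 and 1 in DKO against MttpLKO, DKO against control and MttpLKO against control. The shares over all tested genes were 9.1%, 11.2% and 6.97%. Of the 4, 1 was higher and 3 lower, and of the 7, 1 was higher and 6 lower. Over the list, 22 were higher and 35 lower in DKO against MttpLKO (median log2 fold change -0.05). In DKO against control 23 were higher and 34 lower (-0.03). Fancd2, a repair factor of DNA crosslinks, was lower in every DKO pool than in every MttpLKO pool (log2 fold change -1.06 ± 0.38, adjusted p = 0.401) and higher in every MttpLKO pool than in every control pool (1.04 ± 0.37, adjusted p = 0.547). Both values use the same MttpLKO libraries. Apex1, an endonuclease of base excision repair, was higher in every DKO pool than in every control pool (0.53 ± 0.19, adjusted p = 0.342), and Polb, the polymerase of that pathway, than in every MttpLKO pool (0.37 ± 0.11, adjusted p = 0.316). Ercc8, from the same list, was lower in every DKO pool than in every control pool (-0.44 ± 0.17, adjusted p = 0.373). Of the 57 genes, 2 were higher and 10 lower in every DKO pool than in every control pool, where 18.1% of all tested genes did not overlap.

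The ATF4 and CHOP stress list, which covers a stress pathway that also drives Gdf15, held the 1 gene of these lists that passed in edgeR. Asns, asparagine synthetase and a target of ATF4, had 43.6, 26.6 and 21.4 CPM in MttpLKO, against 4.73, 9.4 and 4.27 CPM in control libraries (log2 fold change 2.31 ± 0.38, 4.97-fold, adjusted p = 0.0372). It no longer passed without control replicate 1 or 3, MttpLKO replicate 1 or 2, or DKO replicate 2, or with the 6 compared libraries alone, where the adjusted p lay between 0.0572 and 0.176. DKO pools, at 33.6, 15.3 and 20.2 CPM, were also above every control pool (1.91 ± 0.38, adjusted p = 0.0868). DESeq2 called Asns in both DKO against control (adjusted p = 3.29e-05) and MttpLKO against control (adjusted p = 6.97e-08). Over the 20 genes of the list, 6 were higher and 14 lower in DKO against MttpLKO (median log2 fold change -0.13), 10 higher and 10 lower in DKO against control (-0.01) and 13 higher and 7 lower in MttpLKO against control (0.24). Fgf21, a hormone of the same stress pathway, was lower in every MttpLKO pool than in every control pool (-1.58 ± 0.50, adjusted p = 0.416). Of 21 tested immediate early genes 0 passed in edgeR. An unadjusted edgeR p under 0.05 was found for 5, 4 and 2 in DKO against MttpLKO, DKO against control and MttpLKO against control. The shares over all tested genes were 9.1%, 11.2% and 6.97%. DESeq2 called 2, 3 and 1 of the 21 in the same order, beside 1.45%, 1.73% and 1.12% of all genes. Jun, an AP-1 subunit, was lower in every DKO pool than in every MttpLKO pool (-1.12 ± 0.23, adjusted p = 0.0955), and Myc, the growth-promoting transcription factor, was higher in every DKO pool than in every control pool (1.68 ± 0.31, adjusted p = 0.0583).

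Reads of some members could not be told from those of a neighbour on the other strand, because the strand setting of the counting is not given in the sources used here. Ddb2 shared 23.8% of its exon length with Acp2, Gadd45a 19.1% with E230016M11Rik and Plk3 3.32% with Tctex1d4.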

How the data were processed

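RNA of whole liver was sequenced in 9 libraries, 3 pools of 3 mice for each of 3 genotypes. The authors deposited raw counts per gene, per the file headers, together with their own CPM and RPKM columns. The deposited CPM and RPKM were checked against values worked out from counts and lengths (largest differences 5.1e-11 CPM and 4.7e-11 RPKM), and entered no test. The submitters' processing notes list STAR 2.0.4b, Subread and featureCounts 1.4.5 without roles. The treatment of reads that match several genes is not given in the sources used here, nor are build, annotation and strand setting.

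Symbols came from the reference gene names (40254 of 41388 identifiers) and coordinates from the deposited tables. Of the identifiers, 97.26% were in GENCODE M21 and 82.04% of these had the same start. Genes were kept by filterByExpr with a minimum count of 10 (14741 genes), scaled by TMM and tested with edgeR 4.0.16 (R 4.3.3), by the quasi-likelihood F test in 1 fit of 3 genotype means over 9 libraries. Adjustment was by Benjamini-Hochberg over all tested genes with a threshold of 0.05. Genes varied between pools with a common dispersion of 0.0335 (coefficient of variation 18.3%). A standard error is the fold change over the square root of its F statistic. CPM and RPKM with SD, computed from the counts, use TMM-scaled library sizes. The scripts were tested on simulated data. Promoter sequences are from RefSeq (GRCm38.p6).

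The members and lists were chosen with earlier results of these data known. Named members were Trp53, Cdkn1a and Mdm2, any with an adjusted p under 0.05, and the 4 with the smallest p per comparison. From each other list, genes that passed and the 2 with the smallest p per comparison could be named. Other members were named for their level or for a gap between libraries. Every replicate pair differed beyond sampling noise, with a chi-square of 21.4 to 71.3 for each degree of freedom. The replicate numbers in the titles were checked for pairing; deviations of same-numbered pools correlated at -0.25 to 0.08, so they do not pair the pools. Alternatives were DESeq2 1.42.0, other scaling, other filters, removal of the 20 most abundant genes, the 6 compared libraries alone, the replicate number as a block and leaving out each library.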

Additional observations from a re-analysis of the deposited data

How the results depend on the processing

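The count of members that passed stayed at 0 in all 3 comparisons under the alternatives tried, with these exceptions. In DKO against control DESeq2 gave 1 (Fas). In DKO against MttpLKO the count was 1 (Gdf15) with no filter on low counts and ranged from 0 to 1 when 1 library was left out, the 1 being without MttpLKO replicate 3. The cause was not tested. The adjusted p of Fas in DKO against control ranged from 0.00567 to 0.412 over the alternatives, and that of Gdf15 in DKO against MttpLKO from 0.00373 to 0.535. The call of Asns in MttpLKO against control ended under 6 alternatives; over all alternatives its log2 fold change was 1.96 to 2.75 and its adjusted p 6.97e-08 to 0.176. Calls over all genes, 59 in DKO against MttpLKO, 49 in DKO against control and 51 in MttpLKO against control, became 214, 255 and 165 with DESeq2, 180, 201 and 171 with no filter on low counts, and 34, 78 and 50 with the 6 compared libraries alone. Leaving out 1 library moved them to between 22 and 73, 15 and 100, and 14 and 54.

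Leaving out 1 library gave log2 fold changes for Cdkn1a from -0.67 to 0.47 in DKO against MttpLKO, from -0.44 to 0.88 in DKO against control and from -0.34 to 1.00 in MttpLKO against control, and for Trp53 from -0.13 to 0.07 in DKO against MttpLKO. Mdm2 in MttpLKO against control, at 0.00, lay between -0.05 and 0.06, and the other 17 named values kept their sign. The median log2 fold change of the members moved by less than 0.118 in each comparison. That value is the pooled within-genotype SD of the members' mean log2(CPM + 0.5) per library, and not the spread of the median itself. In MttpLKO against control the median, 0.19, lay between 0.09 and 0.25 when 1 library was left out. Brca1 and Cdkn2b fell below the filter at a minimum count of 50, and Cdkn2b did so in the fit of the 6 compared libraries alone, so these gave no value.

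With the replicate number as a block the members called stayed at 0 in each comparison, and calls over all genes were 43 in DKO against MttpLKO, 40 in DKO against control and 35 in MttpLKO against control. The numbers do not pair the pools: same-numbered pools did not deviate together.

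Depth limits the rare members: Pmaip1, Cdkn2a and Cdkn2b had between 1 and 29 counts per library. With 3 pools per genotype, intervals of the variable members, Cdkn1a among them, are too wide to show moderate changes.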
